A study of Mus musculus with 6 samples.

Results

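Ionotropic glutamate receptors are ligand-gated cation channels that open when glutamate binds. AMPA receptors are built from the GluA subunits encoded by the Gria genes, kainate receptors from the products of the Grik genes, and NMDA receptors from an obligatory GluN1 subunit, encoded by Grin1, together with other Grin products. In pancreatic islets alpha cells release glutamate together with glucagon, and it acts on AMPA and kainate receptors of islet cells, and NMDA receptors of beta cells have been linked to the control of insulin secretion. The genes described here are Gria1, Gria2, Gria3, Gria4, Grik2, Grik4, Grik5, Grin1, Grin2c and Grin2d, 10 names in all, and every probe set whose platform annotation gives one of these symbols alone was taken. This gave 17 probe sets for 9 genes, out of 18193 genes with a named probe set. Grin1 had no probe set named for it alone, so its expression is not analysed here. Of the 9 genes, 3 had 1 probe set, 4 had 2 and 2 had 3.

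The arrays compared islets from mice labelled as Pdx1Cre;PPARbetafl/fl, which carry Cre recombinase under the Pdx1 promoter and floxed alleles of Ppard, with islets from PPARbetafl/fl littermates that carry the floxed alleles without Cre. Ppard encodes PPAR beta, also written PPAR delta, a nuclear receptor activated by fatty acids. All mice were 8 weeks old and of a mixed SV 129/C57BL/6 background, with 3 arrays per group, each from a different animal. The Pdx1 promoter is active throughout the developing pancreas, so recombination is not limited to one islet cell type, and with no Cre mice that carry intact Ppard alleles the deletion and the Cre transgene cannot be told apart for any difference given here. The source is labelled as beta-cells, but islets were isolated whole per the protocol. Values are log2 RMA values, in which 1 unit is a doubling, differences are arrays labelled knockout minus control arrays, and a probe set was called when its limma p was under 0.05 after Benjamini-Hochberg adjustment over the 45037 probe sets fitted.

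Ppard itself showed no lower level under the knockout label. On the brighter of its probe sets it had values of 8.01, 8.20 and 7.70 in the arrays labelled knockout, against 7.75, 7.56 and 7.12 in control arrays, a difference of 0.49 ± 0.20 (SE, limma adjusted p = 0.377). On the dimmer one the values were 5.97, 5.84 and 5.73 in the arrays labelled knockout, against 5.57, 5.47 and 5.47 in control arrays. Here all arrays labelled knockout lay above all controls, as in 10.1% of all probe sets. The difference was 0.35 ± 0.11 (SE) and was not called (limma adjusted p = 0.255). Which exon was removed is not given, and probes that lie elsewhere in the gene cannot check the deletion, so genotype rests on the labels and every direction given here is that of the arrays so labelled. Correlations over probe sets lay between 0.991 and 0.993 among arrays labelled knockout, between 0.981 and 0.991 among controls, and between 0.978 and 0.987 across groups. Markers of exocrine acinar cells differed widely between arrays. The mean over 17 acinar markers was 9.06, 6.02 and 6.22 in knockout-labelled arrays 1 to 3, against 7.28, 11.04 and 11.34 in control arrays 1 to 3.

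Gria2, which encodes the subunit that makes AMPA channels nearly impermeable to calcium once its messenger RNA is edited, was the receptor gene with the largest difference. All 3 of its probe sets were lower in the arrays labelled knockout, by 1.81, 1.46 and 0.56 on the log2 scale. In each of them the groups did not overlap, where 8.85% of all probe sets separated in the lower direction. One of the 3 passed the threshold, the only call among the 17 receptor probe sets, while 0.184% of all probe sets were called lower, 0.713% higher and 0.897% in either direction. The other 3 AMPA subunit genes, the 3 kainate subunit genes and both NMDA subunit genes measured had 0 calls by limma in either direction, with 1 of their 14 probe sets, the brighter one of Gria3, at an unadjusted p under 0.05. The set of 10 genes was chosen by symbol with the log2 differences of this same contrast already known, so the values and calls that follow are a description and nothing is read from their share.

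One regulatory sequence is shown because Gria2 carries the largest change. RefSeq promoter windows, which run from 250 bases before to 50 after an annotated start, were found for 8 of the 10 genes (build GRCm38.p6), with none for Gria1 and Gria3. The Gria2 window lies at chr3:80802786-80803085 on the minus strand. Capitals mark its only match to any of the 4 motifs searched, TGCGCA, a repeat unit of the site of the transcription factor NRF1 (nuclear respiratory factor 1).
Gria2: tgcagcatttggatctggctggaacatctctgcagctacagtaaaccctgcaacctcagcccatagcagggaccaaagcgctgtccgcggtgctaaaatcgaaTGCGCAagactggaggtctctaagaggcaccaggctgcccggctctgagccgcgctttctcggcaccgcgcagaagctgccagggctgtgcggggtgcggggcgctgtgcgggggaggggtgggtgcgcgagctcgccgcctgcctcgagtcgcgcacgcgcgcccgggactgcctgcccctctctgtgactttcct

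That match begins at position -147 from the start. Motifs were searched on both strands. The NRF1 unit was present in 2 of the 8 receptor windows, those of Gria2 and Grin2c, and in 7.76% of the 32851 windows of the promoter collection. The direct repeat bound by PPAR and RXR, AGGTCANAGGTCA, was found in 0 of the 8 windows and in 0.0396% of all windows. Its repeat unit AGGTCA, which the direct repeat contains, was found in the Grin2c window alone among the 8, and in 16.3% of all windows. The Sp1 box GGGCGG was found in 4 of the 8, those of Grik4, Grik5, Grin1 and Grin2c, and in 35.7% of all windows. No match says only that these letters are not in the window.

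Gria2 was measured by probe sets 1421970_a_at, 1453098_at and 1434146_at, given here by decreasing brightness. The brightest, 1421970_a_at, had values of 5.59, 6.15 and 5.70 in the arrays labelled knockout, against 7.72, 7.18 and 6.91 in control arrays. Each array labelled knockout was below each control. The means were 5.81 ± 0.30 and 7.27 ± 0.41 (SD, n = 3 each), a difference of -1.46 ± 0.24 (SE, 95% interval -2.03 to -0.89) or 2.74-fold lower in the arrays labelled knockout. Its limma adjusted p of 0.0543 lay just above the threshold.

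The dimmest Gria2 probe set, 1434146_at, had values of 3.16, 3.13 and 2.77 in the arrays labelled knockout, against 5.08, 4.70 and 4.69 in control arrays. The means were 3.02 ± 0.22 in the arrays labelled knockout and 4.82 ± 0.22 in control arrays (SD, n = 3 each). On this probe set Gria2 fell by 1.81 on the log2 scale (SE 0.17, 95% interval -2.20 to -1.41, limma adjusted p = 0.00605), which is 3.50-fold lower. The mean of the arrays labelled knockout stood at percentile 17.7 of the brightness of all probe sets, against percentile 42.0 for control arrays, and the part of array background in the size of the fold was not tested.

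The probe set 1453098_at showed a smaller difference. Its values were 4.73, 5.18 and 5.28 in the arrays labelled knockout, against 5.32, 5.88 and 5.66 in control arrays. The groups did not overlap, but knockout 3 and control 1 were only just apart. The difference was -0.56 ± 0.20 (SE, limma adjusted p = 0.319). The 3 probe sets thus had the same direction and different sizes, and the annotation used here does not say which Gria2 transcripts each one detects.

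**Figure D1:**
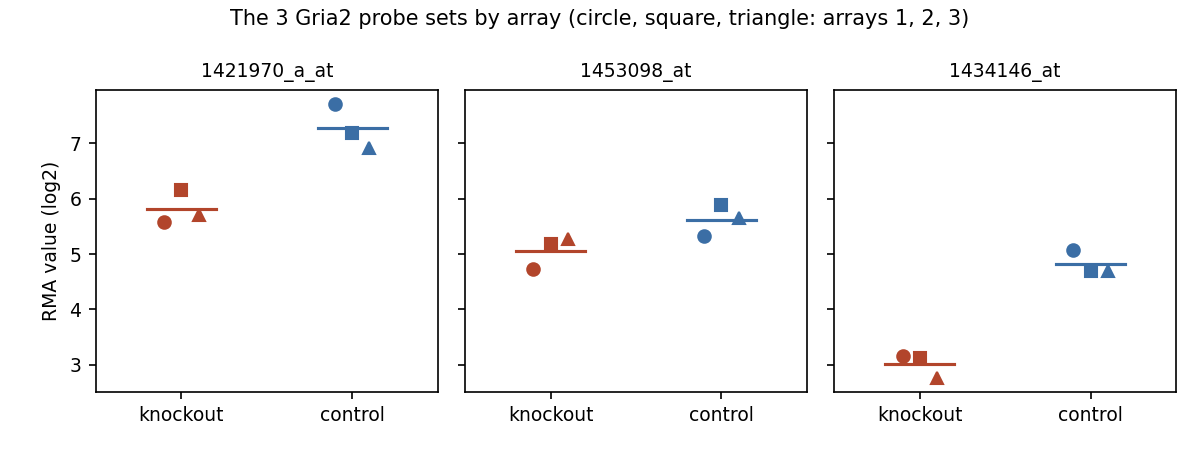
Log2 RMA values of the 3 Gria2 probe sets, one panel each, for the 3 arrays labelled knockout (left) and the 3 control arrays (right), with group means as lines. In each panel all arrays labelled knockout lie below all controls, with the widest separation for 1434146_at and the narrowest for 1453098_at.

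The call on 1434146_at was kept in 6 of 6 fits that left out 1 array, with differences between -1.88 and -1.68 and limma adjusted p between 0.0095 and 0.0360. With the acinar marker mean as a covariate it differed by -1.91 ± 0.22 (SE) and missed the threshold (limma adjusted p = 0.0521), as it did without controls 2 and 3 (-2.06, limma adjusted p = 0.0694) and with no moderation of the variance (adjusted p = 0.129). The brightest probe set passed in 6 of 15 alternatives with no endocrine or nerve marker covariate, among them the acinar covariate (-1.89 ± 0.20, limma adjusted p = 0.0437). In a fit on gene means, the mean of the 3 Gria2 probe sets differed by -1.27 ± 0.13 (limma adjusted p = 0.0033).

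Gria3, on the X chromosome, encodes another AMPA subunit. Its brighter probe set had values of 6.25, 6.38 and 6.21 in the arrays labelled knockout, against 6.67, 6.72 and 6.61 in control arrays. The groups did not overlap and each was tight. The difference was -0.39 ± 0.10 (SE, 95% interval -0.63 to -0.14) and was not called (limma adjusted p = 0.188). It stayed negative in 15 of 15 alternatives with no endocrine or nerve marker covariate, between -0.44 and -0.33, and was called in 0 of them (adjusted p from 0.0926 to 0.478). The dimmer Gria3 probe set had values of 4.74, 5.10 and 5.07 in the arrays labelled knockout, against 5.95, 5.49 and 5.03 in control arrays. Here control 3 fell inside the range of the arrays labelled knockout, and the difference was -0.52 ± 0.24 (limma adjusted p = 0.424).

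Gria1 and Gria4 encode the remaining AMPA subunits, and their probe sets were dim. On its brighter probe set Gria1 had values of 2.89, 2.83 and 3.38 in the arrays labelled knockout, against 3.25, 2.90 and 3.23 in control arrays. The groups overlapped, and the control mean stood at percentile 18.6 of the brightness of all probe sets. The difference was -0.093 ± 0.18 (SE), with a 95% interval of -0.53 to 0.34. Its other probe set differed by 0.041 ± 0.11.

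The brightest Gria4 probe set had values of 5.04, 4.52 and 5.20 in the arrays labelled knockout, against 4.89, 4.84 and 5.06 in control arrays. Knockout 2 was the lowest and knockout 3 the highest of all 6 arrays, so the groups overlapped. The difference was -0.0082 ± 0.19 (95% interval -0.45 to 0.44). The other Gria4 probe sets differed by -0.077 and -0.039, and the dimmest of them had a control mean at percentile 1.16, near the bottom of the array. RMA values carry no detection call, so whether Gria1 or Gria4 RNA was present at all was not determined.

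**Figure D2:**
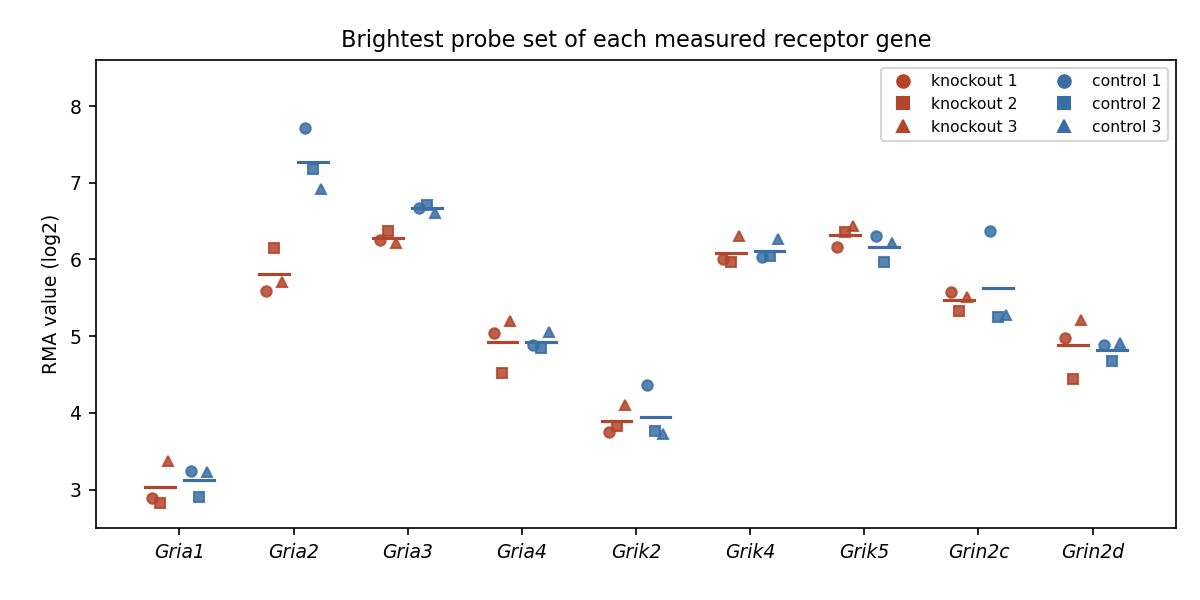
Log2 RMA values of the brightest probe set of each of the 9 measured receptor genes, with arrays labelled knockout to the left of control arrays and group means as lines. Gria2 and Gria3 are the only genes of the 9 whose groups do not overlap on this probe set; brightness differs between probe sets for technical reasons and is not compared between genes.

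The kainate receptor genes showed overlapping groups throughout. Grik2 encodes the low-affinity subunit GluK2, which can form channels on its own. Its brighter probe set had values of 3.75, 3.82 and 4.11 in the arrays labelled knockout, against 4.36, 3.76 and 3.72 in control arrays. Control 1 was the highest array and control 3 the lowest. The difference was -0.052 ± 0.20 (SE, 95% interval -0.53 to 0.42), and the other probe set differed by 0.0064 ± 0.21.

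Grik4 and Grik5 encode the high-affinity kainate subunits, which need a low-affinity partner to form a channel. Grik4 had values of 6.01, 5.96 and 6.30 in the arrays labelled knockout, against 6.03, 6.05 and 6.27 in control arrays. The groups ran nearly level, with a difference of -0.025 ± 0.14 (95% interval -0.35 to 0.30). Grik5 had values of 6.17, 6.36 and 6.44 in the arrays labelled knockout, against 6.30, 5.97 and 6.22 in control arrays. It had the largest positive difference of the 17 probe sets, 0.16 ± 0.14 (95% interval -0.16 to 0.48, limma adjusted p = 0.676), which is smaller than the range within either group. With the acinar covariate the Grik5 difference was -0.0044.

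Of the NMDA receptor genes, Grin2c and Grin2d were measured; both encode GluN2 subunits with weak magnesium block. Grin2c had values of 5.57, 5.33 and 5.51 in the arrays labelled knockout, against 6.38, 5.25 and 5.27 in control arrays. Control 1 stood well above the other 5 arrays, which lay close together. The difference of -0.16 ± 0.30 (SE, 95% interval -0.88 to 0.55) became 0.21 without control 1, and -0.91 with control 1 as the lone control, the 2 controls of high acinar marker level being left out.

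The brighter Grin2d probe set had values of 4.98, 4.44 and 5.21 in the arrays labelled knockout, against 4.88, 4.68 and 4.91 in control arrays. The control arrays lay within the range of the arrays labelled knockout, and the difference was 0.059 ± 0.20 (95% interval -0.43 to 0.54). Its dimmer probe set had values of 3.50, 2.91 and 2.71 in the arrays labelled knockout, against 2.70, 3.53 and 3.53 in control arrays. It differed by -0.21 ± 0.29, and by 0.40 with the acinar covariate.

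**Figure D3:**
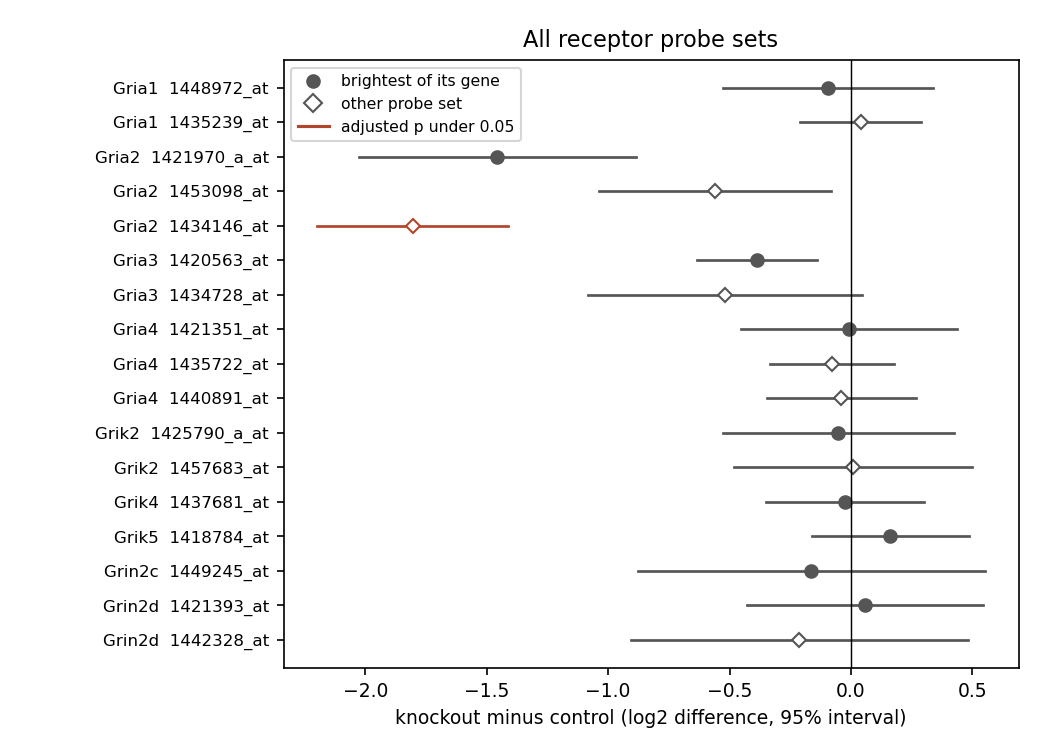
Difference in log2 RMA value, arrays labelled knockout minus control arrays, with limma's 95% interval for all 17 receptor probe sets; filled circles are the brightest probe set of a gene, open diamonds the others, and red marks the one probe set with an adjusted p under 0.05. The intervals of the 3 Gria2 probe sets and of the brighter Gria3 probe set lie below 0, and all others cross 0.

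Across the 17 probe sets, 13 had a lower and 4 a higher mean in the arrays labelled knockout. Their median difference was -0.077, against -0.017 over all 45037 probe sets. With 1 probe set per gene, the brightest, 7 of the 9 were lower and the median was -0.052, against 0.0020 over 18193 genes. In 4 of the 17 probe sets the arrays labelled knockout were all below the controls, and in 0 were they all above; of all probe sets, 8.85% separated in the lower direction, 10.1% in the higher one and 19.0% in either. All 4 belong to Gria2 and Gria3. The 12 probe sets of the other 7 genes differed by -0.21 to 0.16, all with overlapping groups and with limma adjusted p of 0.676 or higher. Control means of 10 of the 17 receptor probe sets were below the median brightness of the table.

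Genes whose values ran most alike with Gria2 and Gria3 were sought among the brightest probe sets of 11081 genes above median brightness, with Pearson's r over the 6 arrays as the measure. Both groups enter this r, so genes that differ between the groups rank high, and no p is given. For the brightest Gria2 probe set they were Inpp5a, an inositol polyphosphate phosphatase gene (r = 0.998), Fbl, the gene of the nucleolar protein fibrillarin (r = 0.996), and Ppp2r2c, a regulatory subunit of protein phosphatase PP2A (r = 0.991). These differed by -0.53, -0.20 and -0.67, all smaller than Gria2, and were not called (limma adjusted p of 0.120, 0.470 and 0.133). For Gria3 they were Galns, a lysosomal sulfatase gene (r = 0.996), Kmt5a, a histone H4 methyltransferase gene (r = 0.994), and the motor protein gene Myo5b (r = 0.985), with differences of -0.51, -0.70 and -0.78, also not called (limma adjusted p of 0.0938, 0.0912 and 0.0633).

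Other genes of the family were read in the same fit. Those measured were Grik1, Grik3, Grin2a, Grin2b, Grin3a, Grin3b, Grid1 and Grina, the last being named for glutamate binding although its protein belongs to another membrane family. Of these 8 on their brightest probe set, 0 rose, 0 fell and 8 did not pass (limma, with 1 at an unadjusted p under 0.05), beside 0.247% of all genes called lower and 0.852% called higher. Grin3a, which encodes an NMDA subunit that binds glycine, had values of 3.78, 3.55 and 3.34 in the arrays labelled knockout, against 4.25, 4.15 and 4.62 in control arrays. The groups did not overlap on any of its 3 probe sets, which differed by -0.78 ± 0.17, -0.40 ± 0.12 and -0.22 ± 0.10 (SE, limma adjusted p of 0.119, 0.221 and 0.445). Of all probe sets, 8.85% separated in the lower direction. These 3 were dim, with control means at percentiles 35.6, 18.0 and 13.4 of brightness. Grin2a, at the bottom of the brightness range, differed by -0.22 ± 0.097 (limma adjusted p = 0.405).

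Partners that control receptor traffic and gating held few differences. Among 14 auxiliary subunit genes 0 passed the limma test, with a median difference of -0.030. Of them 1 had an unadjusted p under 0.05, beside 14.0% of all genes. Neto2, a partner of kainate receptors, differed by -0.44 ± 0.12 (SE, limma adjusted p = 0.181) and the AMPA partner gene Cacng4 by -0.23 ± 0.11 (limma adjusted p = 0.436). Among 19 scaffold and trafficking genes 0 passed likewise (1 at an unadjusted p under 0.05), with a median of 0.017. Dlg4, the gene of the postsynaptic scaffold PSD-95, differed by 0.33 ± 0.14 on its brightest probe set (limma adjusted p = 0.405), but by -0.46 ± 0.14 and -0.27 ± 0.12 on its other probe sets (limma adjusted p of 0.249 and 0.405), so its probe sets disagreed in direction.

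Homer2, a scaffold gene of metabotropic receptors, had values of 3.14, 3.06 and 3.40 in the arrays labelled knockout, against 3.25, 5.89 and 5.44 in control arrays. Its difference of -1.66 ± 0.63 (limma adjusted p = 0.341) rested on controls 2 and 3, while control 1 lay among the arrays labelled knockout. Controls 2 and 3 also had the highest acinar marker means, and a link between these was not tested. The other Homer2 probe sets, which were dimmer, differed by -0.27 and -0.15 with overlapping groups (limma adjusted p of 0.518 and 0.764). Of 6 metabotropic glutamate receptor genes, all had lower means and 0 passed, also at an unadjusted p under 0.05, with a median of -0.074. Grm3 and Grm2 had the smallest p, at -0.49 ± 0.30 and -0.21 ± 0.14. Of 8 receptor kinase genes 0 passed on their brightest probe set, adjusted or not, with a median of 0.090. Src (0.39 ± 0.17) and Camk2b (-0.27 ± 0.17) had the smallest p. The other Src probe set differed by 0.60 ± 0.14 (limma adjusted p = 0.133, unadjusted p = 0.0036).

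Of the partner lists, only the 3 RNA editing enzyme genes held a call on a brightest probe set. It was 1 rise, beside 0.852% of all genes called higher, and nothing is read from that count. Adarb1 encodes ADAR2, the enzyme that edits Gria2 messenger RNA at the site that sets calcium permeability. It had values of 7.55, 7.33 and 7.45 in the arrays labelled knockout, against 8.27, 7.54 and 7.94 in control arrays. Knockout 1 lay just above control 2, so the groups overlapped by a narrow margin. Adarb1 differed by -0.47 ± 0.19 (SE, limma adjusted p = 0.371), and its other probe sets by -0.55 and -0.40, not called either (limma adjusted p of 0.0941 and 0.571). On the first of these all arrays labelled knockout lay below all controls, as in 8.85% of all probe sets, and on the second the groups overlapped. Adarb2 encodes a related brain protein with no known editing activity of its own. It rose, with values of 5.36, 5.61 and 6.25 in the arrays labelled knockout, against 2.39, 2.43 and 2.39 in control arrays. The difference was 3.34 ± 0.22 (SE, limma adjusted p = 0.00196), and the other Adarb2 probe sets differed by 3.60 (limma adjusted p = 0.00129) and 1.06 (limma adjusted p = 0.169). The control level stood at percentile 7.54 of brightness, so this fold rests on a dim baseline. Adar differed by -0.062.

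Genes that make, convert or carry glutamate were not called on their brightest probe sets. Of 8 genes of glutamate and D-serine metabolism, 0 were called by limma and 2 had an unadjusted p under 0.05, beside 14.0% of all genes. Higher means were seen for 7 of the 8, and the median was 0.089. Gad2, which encodes the glutamate decarboxylase that makes GABA, had values of 4.84, 5.83 and 6.34 in the arrays labelled knockout, against 3.88, 3.52 and 3.47 in control arrays. It differed by 2.04 ± 0.36 (SE, limma adjusted p = 0.0633) and, on its dimmer probe set, rose by 2.48 ± 0.30 (limma adjusted p = 0.0172). Glul, the glutamine synthetase gene, differed by -0.45 ± 0.12 (limma adjusted p = 0.179) and by -0.77 on its other probe set (limma adjusted p = 0.0858). Of 10 glutamate transporter genes 0 passed, adjusted or not, 8 had higher means and the median was 0.10. The plasma membrane transporter genes Slc1a3 and Slc1a1 had the smallest p, at -0.28 ± 0.17 and 0.59 ± 0.39.

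Some cell type marker lists had means that separated the same groups, and others overlapped. In these bulk samples fewer cells of a type and less RNA per cell cannot be told apart. All 7 alpha cell markers measured had lower means, with list means of 8.37, 8.33 and 8.53 in the arrays labelled knockout, against 9.05, 8.99 and 8.89 in control arrays. By limma 0 of them were called, and 5 had an unadjusted p under 0.05, as did 14.0% of all genes. Glucagon (Gcg) differed by -0.16 and the alpha cell transcription factor gene Irx2 by -0.71 ± 0.12 (limma adjusted p = 0.0593). All 6 delta and PP cell markers had lower means and 2 fell, where 0.247% of all genes were called lower, with list means of 10.51, 10.59 and 10.53 in the arrays labelled knockout, against 11.32, 11.14 and 11.20 in control arrays. The somatostatin gene Sst differed by -0.51 ± 0.12 (limma adjusted p = 0.152), and the gene of the ghrelin receptor, Ghsr, by -1.17 ± 0.12 (limma adjusted p = 0.0097).

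Beta cell markers, 8 measured, also had lower list means, at 11.37, 11.59 and 11.71 in the arrays labelled knockout, against 12.04, 11.72 and 11.91 in control arrays. Of these 8 genes 6 had lower and 2 higher means, with a median difference of -0.12. By limma 1 fell, beside 0.247% of all genes called lower. At an unadjusted p under 0.05 were 3, beside 14.0% of all genes. The zinc transporter gene Slc30a8 fell by 0.82 (SE 0.12, limma adjusted p = 0.0394), while the amylin gene Iapp, near the top of the range, differed by 0.017. The brightest genes of the beta, alpha, and delta and PP lists were Iapp, Gcg and Sst. Their means stood at percentiles 100.0, 99.99 and 99.77 of brightness in the arrays labelled knockout, and at 100.0, 100.0 and 99.95 in control arrays. Nerve-related markers, 15 measured, overlapped between groups, at 7.13 to 7.40 in the arrays labelled knockout and 7.12 to 7.40 in control arrays. They had 7 lower and 8 higher means and a median difference of 0.019. By limma 0 were called and 5 had an unadjusted p under 0.05, beside 14.0% of all genes. With their mean as a covariate, a fit added after seeing the data, the Gria2 probe set 1434146_at passed (-1.82, limma adjusted p = 0.0159). Many of these are also expressed by endocrine cells, such as Snap25, which differed by 0.036. Th, the gene of tyrosine hydroxylase, differed by -1.30 ± 0.21 (limma adjusted p = 0.0523). Immune markers, 11 measured, had higher list means, at 6.63 to 6.93 in the arrays labelled knockout against 6.27 to 6.39 in control arrays. Of these genes 9 had higher and 2 lower means, and 6 had an unadjusted p under 0.05, beside 14.0% of all genes. There was 1 rise beside 0.852% of all genes, that of Laptm5 (1.34 ± 0.11, limma adjusted p = 0.00425). Its other probe sets differed by 0.57, 0.40, -0.041 and 0.50, not called (limma adjusted p of 0.436, 0.505, 0.929 and 0.399). Endothelial and fibroblast list means overlapped between groups with 0 calls by limma. In each list 1 gene had an unadjusted p under 0.05, beside 14.0% of all genes. Kdr and Ptprb differed by 0.027 and 0.72 among the endothelial genes, and Pdgfrb and Dcn by -0.19 and 0.82 among the fibroblast genes.

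**Figure D4:**
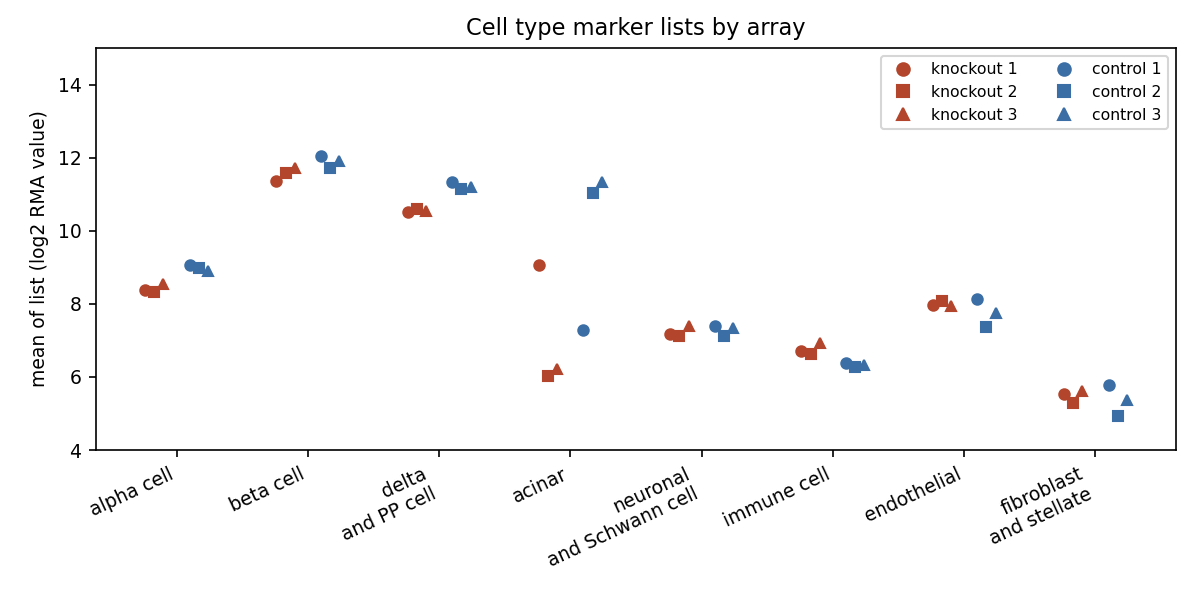
Mean log2 RMA value of each cell type marker list on each array, arrays labelled knockout to the left of control arrays, with circle, square and triangle for arrays 1, 2 and 3. Alpha, beta, and delta and PP cell lists are lower on all arrays labelled knockout, the immune list is higher, and the acinar list is spread over several log2 units within each group.

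The alpha, beta, delta and PP, and immune list means all separated the groups, the beta list by a margin of only 11.71 for the highest array labelled knockout against 11.72 for the lowest control. The Gria2 difference and theirs cannot be told apart with these arrays. With the alpha marker mean as a covariate, also added after seeing the data, 1434146_at differed by -2.04 ± 0.66 (SE) and 1421970_a_at by -0.96 ± 0.94. With the delta and PP marker mean as a covariate they differed by -0.43 ± 0.84 and 1.28 ± 0.95 (SE), so the brightest Gria2 probe set had the opposite sign in that fit. With no covariate the SEs were 0.17 and 0.24. Neither fit left a call among the 45037 probe sets (limma, with 2546 and 4898 probe sets at an unadjusted p under 0.05, against 5813 with no covariate). Both covariates themselves separate the groups, so these fits cannot part marker level from group. Nothing is read from the sign or from the loss of calls. The acinar list means overlapped between groups. Of 17 genes 0 were called by limma and 6 had an unadjusted p under 0.05, beside 14.0% of all genes. Cela1, an elastase gene, had values of 9.43, 5.58 and 5.67 in the arrays labelled knockout, against 8.09, 12.62 and 12.52 in control arrays, and the chymotrypsinogen gene Ctrb1 differed by -2.54.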

How the data were processed

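RNA from islets of 6 mice was amplified to biotin-labelled complementary RNA and read on 1-colour Affymetrix arrays, per the labels' protocols. The authors deposited log2 values per probe set, made with RMA per the submitters' processing notes, which give no version; RMA corrects background, normalizes quantiles between arrays and summarises probes. Scanner files were not used here, so detection and scan batches were not analysed.

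Of 45101 probe sets, 64 manufacturer controls were left out. The platform annotation gave 34945 probe sets a single symbol, 932 several and 9160 none, and 34741 of the first were matched by gene identifier to RefSeq (GRCm38.p6). The brightest probe set over all arrays stood for a gene. Groups, taken from sample titles, were compared two-sided on all 45037 probe sets with lmFit and eBayes of limma 3.58.1 under R 4.3.3, with no term but group, and the fit was tested on simulated data. The number of arrays limits precision.

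The genes, the 16 lists and the alternatives were chosen with earlier results of these data known. All 10 receptor genes are named; of each partner list the 2 genes with the smallest p are named, of each marker list the brightest gene and the one with the smallest p, and for the 2 receptor genes with the largest difference the 3 genes most alike. Other probe sets of some named genes and Adar were added after their values were seen. Of 177 list entries 156 had a probe set. Alternatives were scaling, a brightness filter, variance models, marker covariates, a replicate block and left-out arrays.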

Additional observations from a re-analysis of the deposited data

How the results depend on the processing

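Of the 17 receptor probe sets 1 was called in the analysis as reported, and 404 of all probe sets. After a further quantile normalization 2 receptor probe sets were called, as with an intensity trend in limma (887 of all probe sets) and with the robust form of that trend (903). With no moderation 0 receptor probe sets and 9 of all were called by ordinary least squares (3 of the 17 and 5141 of all at an unadjusted p under 0.05). Without controls 2 and 3 these counts were 0 and 54 by limma (5 of the 17 at an unadjusted p under 0.05), a fit in which the lone control is assumed to vary as the other group does. The acinar covariate gave 106 calls over the table. Of the covariates added after seeing the data, the alpha and the delta and PP marker means gave 0 receptor calls and 0 calls in all by limma. At an unadjusted p under 0.05 were 1 and 2 of the 17, and 2546 and 4898 of all. Both of these marker means separate the groups, so nothing is read from the loss of calls. The nerve-related marker mean gave 1 receptor call and 371 calls in all. With 1 array left out, 1 to 2 receptor probe sets and 152 to 783 of all were called; the lowest total was without control 3, the highest without control 1. The replicate block gave 246 calls and kept 1 receptor call (Gria2, limma adjusted p = 0.0170). The sample titles give same-numbered arrays only a number in common. Their deviations from group means correlated at -0.054, 0.14 and 0.0045, against -0.13 to 0.10 for pairs of unlike number. Whether same-numbered animals shared a litter or batch was not tested. All 3 Gria2 probe sets stayed negative in the 14 to 15 alternatives run on each that used no endocrine or nerve marker covariate. Only probe sets above median brightness enter one filter, which drops 12 of the 17, 1434146_at among them.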
